A study of Mus musculus with 12 samples.

Results

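The interaction between NIAAA feeding and Lpcat3 genotype was measured in mouse liver by RNA-seq, as the feeding difference in Cre-carrying livers minus the feeding difference in floxed livers, for each gene. Of the 12 samples in the series 11 were used, in 4 groups: LPCAT3flox/flox livers on the control regimen (FLOX-NC, 3 libraries), LPCAT3flox/flox-cre livers on the control regimen (LKO-NC, 2 libraries), LPCAT3flox/flox livers on the NIAAA diet (FLOX-ALD, 3 libraries) and LPCAT3flox/flox-cre livers on the NIAAA diet (LKO-ALD, 3 libraries). LKO-NC replicate 3 was not analysed here. All groups carry the floxed Lpcat3 alleles on C57BL/6, and all mice were labelled male and 8 to 10 weeks old. The NIAAA diet is a chronic-plus-binge ethanol feeding model of alcoholic liver injury. The labels do not give the Cre driver, the deleted exons, or whether the replicates are separate animals, so p-values measure the spread between these libraries. A positive interaction means that the level was higher after NIAAA feeding, relative to control, in the Cre genotype than in the floxed genotype, and a negative one means the reverse. It was fitted in 19014 genes of the 55401 in the table.

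LPCAT3 is an acyltransferase of the endoplasmic reticulum that puts polyunsaturated fatty acids into lysophospholipids, above all into phosphatidylcholine, and it shapes membrane composition and lipoprotein secretion in the liver. Ethanol feeding loads hepatocytes with fat, shifts the redox state of NAD and draws in inflammatory cells. The series title names NAMPT, the rate-limiting enzyme that recycles nicotinamide into NAD, beside hepatic LPCAT3.

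The libraries held 39063371 to 73557868 estimated counts each. Lpcat3 itself was at 103, 87.1 and 101 CPM (counts scaled to a common library size) in FLOX-NC, at 29.2 and 37.2 CPM in LKO-NC, at 37.9, 43.2 and 30.5 CPM in FLOX-ALD and at 10.8, 15.4 and 9.80 CPM in LKO-ALD. Every LKO library was below every FLOX library of the same feeding. Its level fell with feeding in both genotypes, by 1.39 on the log2 scale in floxed livers (edgeR adjusted p = 0.0389) and by 1.47 in Cre livers (edgeR adjusted p = 0.0303), and the interaction was -0.09 ± 0.32 (SE). On the authors' FPKM scale, which takes transcript length into account, Lpcat3 means were 47.3 in FLOX-NC, 25.1 in LKO-NC, 18.5 in FLOX-ALD and 6.39 in LKO-ALD. The leading Lpcat3 transcript differed between libraries. A pair of libraries stood apart. FLOX-ALD replicate 1, labelled male, held 772 CPM of Xist and no count of Uty, Kdm5d, Eif2s3y or Ddx3y, which lie on the Y chromosome, against at most 2.95 CPM of Xist and at least 135 CPM of those 4 together in the others. Its sex-linked levels are those of a female liver, against the label, and interactions include it unless its omission is stated. LKO-NC replicate 1 held the highest mean level of the macrophage, monocyte, B cell and interferon lists and 25.3% of its counts in mitochondrially encoded genes. List medians that moved by more than 1.5 times or changed sign without either library are given both ways.

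One gene, Fgf2, passed the threshold of an edgeR quasi-likelihood adjusted p under 0.05 for the interaction, which is 0.00526% of the genes tested. No negative interaction passed it (0.00%). A further description uses the unadjusted p: of 1781 genes at an unadjusted p under 0.05 (9.37%), 801 genes (4.21%) had a positive and 980 (5.15%) a negative interaction, and none of these beyond Fgf2 counts as changed. Over all genes 52.7% of interactions were negative and 47.3% positive, with a median of -0.05. The same fit called 42 genes (0.221%) for feeding in floxed livers, 9 higher (0.0473%) and 33 lower (0.174%) on the NIAAA diet. In Cre livers it called 182 genes (0.957%), 56 higher (0.295%) and 126 lower (0.663%). Of these, 17 genes were called in both genotypes and all 17 in the same direction, which is 40.5% of the floxed calls and 9.34% of the Cre calls. Over the 11409 genes whose mean log2 CPM was 1 or more, the feeding differences of the 2 genotypes, which share no library, had a Pearson r of 0.36 and a Spearman rho of 0.40 across genes. Genes are not independent replicates, so no p is given. Libraries of the 2 feedings did not overlap in either genotype, and moved the same way, for 723 genes that were lower (3.80%) and 637 that were higher (3.35%). They moved in opposite ways for 115 genes that were higher in Cre and lower in floxed livers (0.605%) and for 117 with the reverse pattern (0.615%).

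**Figure D1:**
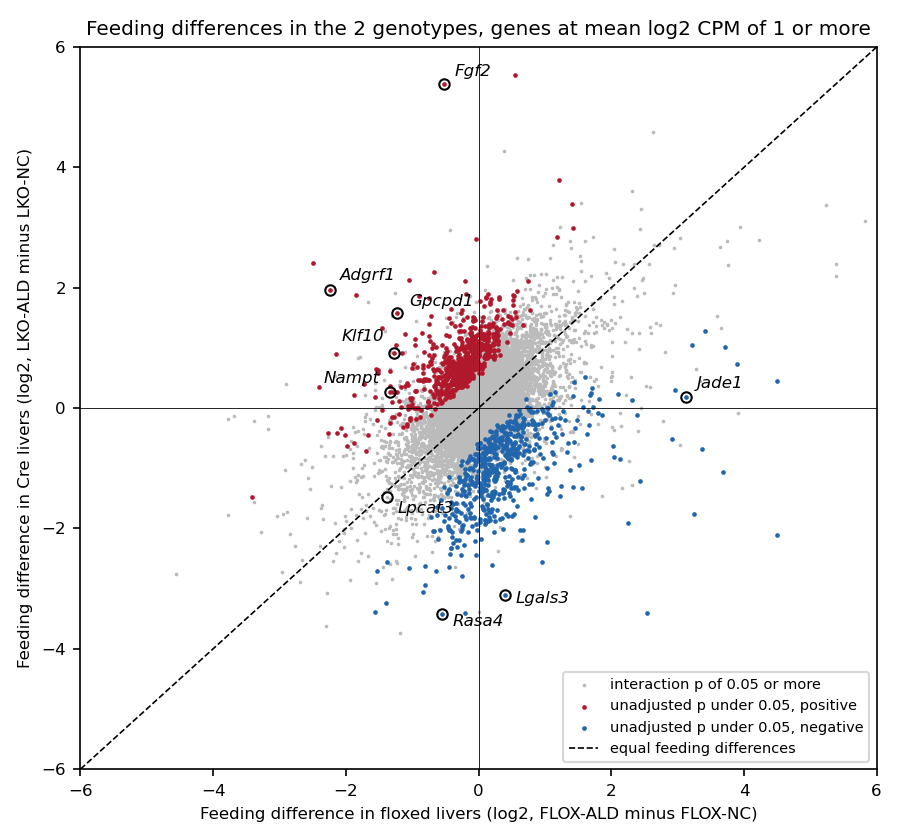
Each point is 1 of 11409 genes whose mean log2 CPM was 1 or more, placed by its feeding difference in floxed livers (x axis, log2) and in Cre livers (y axis, log2), with interactions at an unadjusted p under 0.05 coloured by sign. The dashed line marks equal differences, 26 genes lie outside the axes, Fgf2 stands at the top and Lpcat3 lies close to the line.

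Fgf2, the secreted mitogen basic fibroblast growth factor, lies at chr3:37348346-37410108 on the plus strand (mm10). It was at 4.67, 5.89 and 7.89 CPM in FLOX-NC, at 0.152 and 0.0417 CPM in LKO-NC, at 2.73, 3.61 and 6.59 CPM in FLOX-ALD and at 3.70, 4.14 and 4.45 CPM in LKO-ALD. Both LKO-NC libraries were below the other 9, LKO-ALD was below FLOX-NC, and FLOX-ALD overlapped both of these. Its interaction was 5.90 ± 0.71 (log2, SE; edgeR adjusted p = 0.0351): it rose by 5.38 with feeding in Cre livers (edgeR adjusted p = 0.0061) and differed by -0.52 in floxed livers (edgeR adjusted p = 0.622). The call did not hold without each of 7 libraries in turn: over the 11 leave-one-out fits the interaction ran from 5.25 to 7.06 and the edgeR adjusted p from 0.0085 to 0.152. DESeq2 gave an adjusted p of 5.88e-11 and limma voom one of 0.462. The LKO-NC values rest on 7 and 2 counts, all in the 257-base transcript ENSMUST00000199938, while the 5973-base transcript ENSMUST00000200585 was listed at 0 there and held 175 to 372 counts in every other library. On the authors' FPKM scale, where that short transcript weighs more per count, Fgf2 was at 0.470 and 0.131 in LKO-NC against 0.474 to 1.28 in the rest, and the interaction was 1.57 on the log2(FPKM + 0.1) scale (limma adjusted p = 0.457). Fgf2 overlaps Nudt6 on the other strand and the labels do not say whether counting used strand.

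Jade1, a scaffold of the HBO1 histone acetyltransferase complex, had the smallest p among negative interactions (-2.94 ± 0.45, edgeR adjusted p = 0.154). It was at 5.13, 5.45 and 2.89 CPM in FLOX-NC, at 41.8 and 20.9 CPM in LKO-NC, at 34.2, 37.0 and 47.0 CPM in FLOX-ALD and at 36.1, 42.8 and 28.3 CPM in LKO-ALD. The 3 FLOX-NC libraries were below all others, which overlapped. Jade1 rose by 3.13 with feeding in floxed livers (edgeR adjusted p = 0.00508), with a difference of 0.19 in Cre livers (edgeR adjusted p = 0.806). The transcript that held most counts differed between libraries: it was ENSMUST00000170711 in FLOX-NC, ENSMUST00000026865 in FLOX-ALD replicate 1 and ENSMUST00000163764 in the remaining 7. Atg7, the E1-like enzyme of the autophagy conjugation systems, had a similar switch: its level was 8.84 and 10.5 CPM in LKO-NC against 18.6 to 27.7 CPM elsewhere, and all LKO-NC counts of its listed transcripts lay in ENSMUST00000182793. Atg7 rose by 1.27 with feeding in Cre livers (edgeR adjusted p = 0.0303), and its interaction was 1.38 ± 0.28 (edgeR adjusted p = 0.416). Whether the assignment of reads to transcripts plays a part in these gene totals was not tested.

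**Figure D2:**
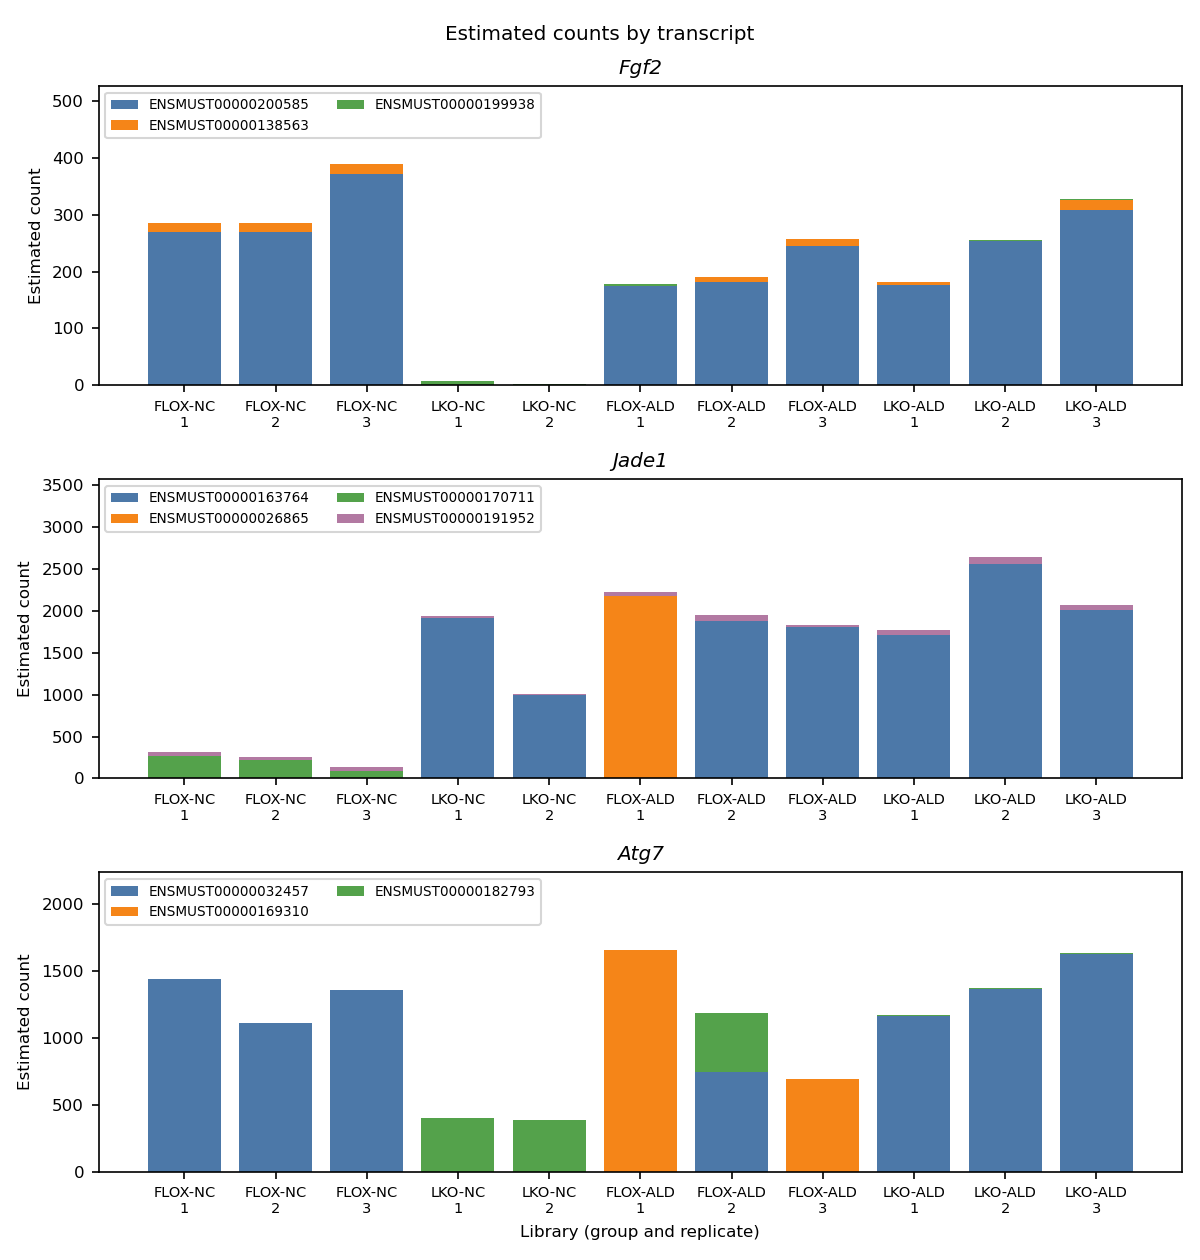
Stacked bars give the estimated count of each transcript of Fgf2, Jade1 and Atg7 (y axis, linear) in each library (x axis, group and replicate); transcripts shown hold at least 3% of the gene's counts or at least 50% in a library. ENSMUST00000200585 of Fgf2 is listed at 0 in both LKO-NC libraries, and the leading transcript of Jade1 and Atg7 changes between libraries.

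Several genes with a positive interaction had opposed feeding differences, in that libraries of the 2 feedings did not overlap in either genotype. Genes were named in part for this pattern, which 115 of all genes tested (0.605%) had in this direction, so it is no separate support. Adgrf1, an adhesion G protein-coupled receptor with 1 annotated transcript, was at 3.69, 3.76 and 8.68 CPM in FLOX-NC, at 0.628 and 0.688 CPM in LKO-NC, at 0.798, 1.25 and 1.36 CPM in FLOX-ALD and at 2.33, 2.01 and 3.34 CPM in LKO-ALD. FLOX-NC was highest, LKO-NC lowest, and the order of the genotypes turned over between the feedings. The interaction was 4.20 ± 0.65 (edgeR adjusted p = 0.154). Klf10, a zinc finger transcription factor induced by TGF-beta, was at 34.7, 36.4 and 42.2 CPM in FLOX-NC, at 21.5 and 17.1 CPM in LKO-NC, at 16.7, 16.9 and 13.1 CPM in FLOX-ALD and at 38.1, 45.9 and 25.2 CPM in LKO-ALD. FLOX-ALD was below the other groups. Klf10 fell by 1.28 with feeding in floxed livers (edgeR adjusted p = 0.0498), differed by 0.91 in Cre livers (edgeR adjusted p = 0.0936) and had an interaction of 2.19 ± 0.35 (edgeR adjusted p = 0.164). Over the 11 fits that leave out 1 library, the interaction ranged from 3.67 to 4.41 for Adgrf1 and from 2.00 to 2.44 for Klf10. Genes were named in part by how small p stayed in these fits, so the ranges give no separate support.

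Gpcpd1 cleaves glycerophosphocholine into choline and glycerol phosphate, and so stands at the choline end of phosphatidylcholine turnover. It was at 116, 105 and 162 CPM in FLOX-NC, at 63.6 and 78.5 CPM in LKO-NC, at 46.4, 92.2 and 24.2 CPM in FLOX-ALD and at 273, 157 and 210 CPM in LKO-ALD. Feedings did not overlap in either genotype and went opposite ways, as in 0.605% of all genes in this direction. The interaction of Gpcpd1 was 2.82 ± 0.62 (edgeR adjusted p = 0.448). Dact1, an antagonist of Dishevelled in WNT signalling, was at 3.31, 2.56 and 3.20 CPM in FLOX-NC, at 0.953 and 0.396 CPM in LKO-NC, at 1.47, 1.90 and 0.974 CPM in FLOX-ALD and at 2.43, 3.40 and 3.02 CPM in LKO-ALD. LKO-NC was below the rest and the interaction was 3.18 ± 0.61 (edgeR adjusted p = 0.416). Scamp1, a carrier protein of secretory membranes, and Dpy19l1, a C-mannosyltransferase, had interactions of 1.95 ± 0.41 and 1.65 ± 0.35 (edgeR adjusted p = 0.416 for both). Dpy19l1 was at 115, 89.9 and 127 CPM in LKO-ALD, above the 33.2 to 70.4 CPM of the other 8 libraries. Its transcript ENSMUST00000170356 held 3903, 3262 and 4487 estimated counts in LKO-ALD, 1808 in FLOX-NC replicate 1 and 0 in the rest. The leading transcript differed between libraries for Dpy19l1 and for Gpcpd1, and whether read assignment plays a part was not tested. Tm2d1 rose by 1.65 with feeding in Cre livers (edgeR adjusted p = 0.0495), where LKO-ALD held 10.4, 7.43 and 9.14 CPM against 2.87 to 6.53 CPM in FLOX and 2.49 to 3.25 CPM in LKO-NC.

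**Figure D3:**
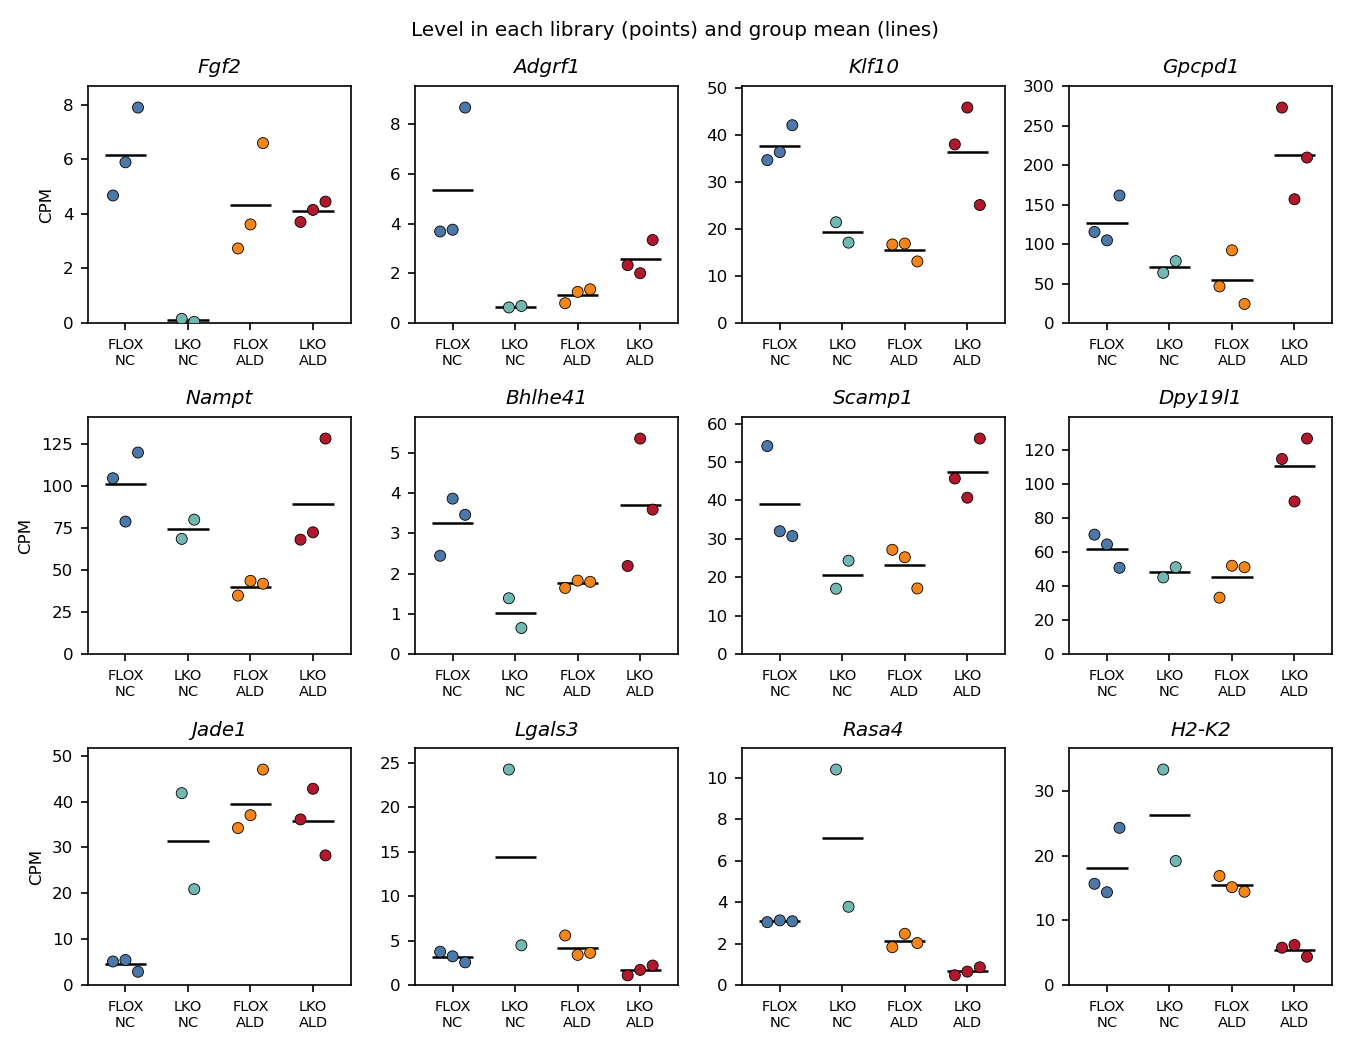
Points give the CPM (y axis, linear from 0) of 12 genes in each library, lines the group mean, for FLOX-NC, LKO-NC, FLOX-ALD and LKO-ALD (x axis). LKO-NC is low for Fgf2, Adgrf1 and Bhlhe41, FLOX-NC is low for Jade1, LKO-ALD is low for Rasa4 and H2-K2, and LKO-NC replicate 1 is high for Lgals3 and Rasa4.

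Other genes with a negative interaction fell with feeding in Cre livers. H2-K2, annotated as a transcribed pseudogene of the class I MHC family, was at 15.6, 14.3 and 24.3 CPM in FLOX-NC, at 33.3 and 19.2 CPM in LKO-NC, at 16.8, 15.1 and 14.4 CPM in FLOX-ALD and at 5.77, 6.18 and 4.36 CPM in LKO-ALD. LKO-ALD was below all other libraries. H2-K2 fell by 2.27 with feeding in Cre livers (edgeR adjusted p = 0.00968), and its interaction was -2.04 ± 0.39 (edgeR adjusted p = 0.416). As a member of a family of near-identical genes, its counts are uncertain. Rasa4, a calcium-dependent brake on Ras, was at 3.03, 3.12 and 3.08 CPM in FLOX-NC, at 10.4 and 3.77 CPM in LKO-NC, at 1.83, 2.47 and 2.03 CPM in FLOX-ALD and at 0.470, 0.647 and 0.857 CPM in LKO-ALD. It fell by 3.42 in Cre livers (edgeR adjusted p = 0.00954), and the interaction of -2.87 ± 0.57 became -1.96 without LKO-NC replicate 1. Tmem132a fell by 2.62 in Cre livers (edgeR adjusted p = 0.0303) with an interaction of -2.82 ± 0.56.

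Lgals3, the macrophage lectin galectin-3, was at 3.74, 3.22 and 2.55 CPM in FLOX-NC, at 24.2 and 4.46 CPM in LKO-NC, at 5.57, 3.38 and 3.61 CPM in FLOX-ALD and at 1.08, 1.70 and 2.19 CPM in LKO-ALD. LKO-ALD was lowest and a single LKO-NC library, replicate 1, was high. Lgals3 fell by 3.11 in Cre livers (edgeR adjusted p = 0.0325); its interaction of -3.51 ± 0.74 became -1.83 without that library. Cd84, a SLAM family receptor of leukocytes, fell by 1.52 in Cre livers (edgeR adjusted p = 0.0488), with an interaction of -2.04 ± 0.43 that became -1.31 without LKO-NC replicate 1. Mndal, an interferon-inducible gene of the p200 family, fell by 1.96 in Cre livers (edgeR adjusted p = 0.00954), with an interaction of -1.497 ± 0.34 that became -0.95 without it. Myom1, a protein of the sarcomere M band, had LKO-NC values of 21.2 and 15.7 CPM against 1.47 to 6.39 CPM in the other 9 libraries. It fell by 3.24 in Cre livers (edgeR adjusted p = 0.00475) and had an interaction of -1.84 ± 0.43.

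The group that set a gene apart was read from where its libraries lay. Among the 801 genes with a positive interaction at an unadjusted p under 0.05, LKO-ALD was above all other libraries in 199 and LKO-NC below all others in 161. FLOX-NC was above all others in 61 and FLOX-ALD below in 41. Among the 980 with a negative interaction, LKO-NC was above all others in 176, LKO-ALD below in 174, FLOX-NC below in 79 and FLOX-ALD above in 28. LKO-NC has 2 libraries where each other group has 3, so these counts do not compare groups with one another. Over all 19014 genes, whatever their interaction, LKO-ALD was above all other libraries in 2.73% and below in 2.18%, and LKO-NC above in 3.34% and below in 2.48%. FLOX-NC was above in 2.48% and below in 1.85%, and FLOX-ALD above in 0.678% and below in 0.657%. Genes with an interaction were chosen from the same libraries, so nothing is read from their larger shares. An unadjusted p under 0.05 in the fit to all libraries and in all 11 leave-one-out fits was held by 178 positive (0.936%) and 175 negative genes (0.920%).

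Nampt was at 105, 78.9 and 120 CPM in FLOX-NC, at 68.6 and 80.1 CPM in LKO-NC, at 34.8, 43.6 and 41.9 CPM in FLOX-ALD and at 68.2, 72.5 and 128 CPM in LKO-ALD. FLOX-ALD was below every other library, and LKO-NC and LKO-ALD overlapped. The feeding difference was -1.34 in floxed livers (edgeR adjusted p = 0.0756) and 0.27 in Cre livers (edgeR adjusted p = 0.66), and the interaction of 1.61 ± 0.40 had an unadjusted p of 0.00145 and an edgeR adjusted p of 0.498. DESeq2 gave Nampt an adjusted p of 0.0436. Of 22 tested genes of NAD synthesis and salvage, 3 had a positive and 1 a negative interaction at an unadjusted p under 0.05. These were 13.6% and 4.55% of the list, against 4.21% and 5.15% of all genes tested. The list median was 0.22 (0.09 without LKO-NC replicate 1) against -0.05 over all genes in the fit to all libraries. The positive ones beside Nampt were Tdo2, which opens the tryptophan ring on the way to NAD (2.13 ± 0.69), and Kmo, the kynurenine hydroxylase of the same route (0.91 ± 0.31). Both were highest in LKO-ALD: Tdo2 at 977, 609.7 and 1019 CPM against 166 to 532 CPM elsewhere, and Kmo at 381, 355 and 385 CPM against 196 to 310 CPM. Within LKO-NC, Tdo2 was at 201 CPM in replicate 1 and 462 CPM in replicate 2. Nt5e, the ecto-enzyme CD73, was the negative one (-2.17 ± 0.97, or -1.21 without FLOX-ALD replicate 1). Among 19 NAD consumers, 2 were positive and none negative, with a median of -0.06, or 0.09 without LKO-NC replicate 1 and -0.11 without FLOX-ALD replicate 1.

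Of 20 lysophospholipid remodelling genes, the family to which Lpcat3 belongs, 2 had an unadjusted p under 0.05, both negative. These were 10.0% of the list, against 5.15% of all genes tested. The median was -0.08, or -0.15 without LKO-NC replicate 1 and -0.13 without FLOX-ALD replicate 1. Mboat1, an acyltransferase of lysophosphatidylserine and lysophosphatidylethanolamine, had an interaction of -2.86 ± 0.93 at levels of at most 1.25 CPM. Pla2g6, a calcium-independent phospholipase A2, fell by 1.31 in Cre livers (edgeR adjusted p = 0.0303), with an interaction of -0.79 ± 0.30. In the 19 genes of phosphatidylcholine and phosphatidylethanolamine synthesis the median was 0.36, with 1 positive and 2 negative genes at that threshold. These were 5.26% and 10.5% of the list, against 4.21% and 5.15% of all genes tested. Pcyt2, the rate-limiting enzyme of phosphatidylethanolamine synthesis from ethanolamine, was at 381, 431 and 319 CPM in LKO-ALD against 603 to 1107 CPM in the other 8 libraries. It fell by 1.46 in Cre livers (edgeR adjusted p = 0.0488), with an interaction of -1.28 ± 0.42. Chkb, a choline and ethanolamine kinase, had an interaction of -1.11 ± 0.45 and Etnk2, an ethanolamine kinase, one of 1.19 ± 0.48. Etnk2 was at 284, 257 and 374 CPM in LKO-ALD, above the 80.5 to 203 CPM elsewhere.

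Core clock genes form the transcription loop in which CLOCK and BMAL1 activate, and PER, CRY, REV-ERB and BHLHE40 or BHLHE41 proteins repress, rhythmic genes. Of 19 tested, 5 had a positive interaction at an unadjusted p under 0.05 and 1 a negative one. These were 26.3% and 5.26% of the list, against 4.21% and 5.15% of all genes tested. The list median was 0.06, or 0.47 without LKO-NC replicate 1 and 0.11 without FLOX-ALD replicate 1. Bhlhe41 was at 2.44, 3.86 and 3.46 CPM in FLOX-NC, at 1.39 and 0.646 CPM in LKO-NC, at 1.64, 1.83 and 1.79 CPM in FLOX-ALD and at 2.19, 5.36 and 3.59 CPM in LKO-ALD. Feedings did not overlap in either genotype and went opposite ways, as in 0.605% of all genes in this direction. The interaction of Bhlhe41 was 2.76 ± 0.61. Ciart, a repressor of CLOCK and BMAL1, was at 31.4, 16.3 and 21.3 CPM in FLOX-NC, at 18.1 and 8.32 CPM in LKO-NC, at 3.16, 7.66 and 7.90 CPM in FLOX-ALD and at 8.90, 18.2 and 18.9 CPM in LKO-ALD, so that FLOX-ALD was lowest. Its interaction was 2.10 ± 0.65, and that of Bhlhe40 was 1.497 ± 0.46. Arntl, which encodes BMAL1, went the other way (-2.04 ± 0.81) through LKO-NC replicate 2, at 18.3 CPM against 2.25 to 8.70 CPM in the other 10, and was -0.50 without it. The labels give no hour of collection.

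The E-box CACGTG, which reads the same on both strands and is bound by CLOCK with BMAL1 and by BHLHE40 and BHLHE41, was searched for in the RefSeq promoter windows of 300 bases (250 before to 50 after the start, GRCm38.p6). It was in the window of 5 of the 16 clock genes that have one (Bhlhe41, Ciart, Cry1, Per1 and Tef), or 31.2%, against 8.09% of all 27025 genes with a window. The windows of Bhlhe41 and Ciart, the clock genes of largest positive interaction, are printed with the E-box in capitals, beside those of Nampt and of Fgf2, which hold none. Ciart lies at chr3:95882179-95882478 on the minus strand, Bhlhe41 at chr6:145865371-145865670 on the minus strand, Nampt at chr12:32820085-32820384 on the plus strand and Fgf2 at chr3:37348403-37348702 on the plus strand.
Ciart: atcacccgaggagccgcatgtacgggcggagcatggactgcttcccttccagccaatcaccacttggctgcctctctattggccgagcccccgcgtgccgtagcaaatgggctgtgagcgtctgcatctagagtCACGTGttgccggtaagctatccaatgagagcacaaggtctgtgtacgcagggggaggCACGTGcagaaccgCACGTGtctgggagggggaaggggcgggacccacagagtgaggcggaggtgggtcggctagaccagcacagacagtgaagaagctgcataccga
Bhlhe41: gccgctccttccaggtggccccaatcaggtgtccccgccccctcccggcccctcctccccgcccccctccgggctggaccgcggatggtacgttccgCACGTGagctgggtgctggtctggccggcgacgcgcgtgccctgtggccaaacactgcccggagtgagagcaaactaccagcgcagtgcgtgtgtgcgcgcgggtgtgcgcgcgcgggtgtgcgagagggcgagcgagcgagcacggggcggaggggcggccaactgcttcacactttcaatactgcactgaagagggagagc
Nampt: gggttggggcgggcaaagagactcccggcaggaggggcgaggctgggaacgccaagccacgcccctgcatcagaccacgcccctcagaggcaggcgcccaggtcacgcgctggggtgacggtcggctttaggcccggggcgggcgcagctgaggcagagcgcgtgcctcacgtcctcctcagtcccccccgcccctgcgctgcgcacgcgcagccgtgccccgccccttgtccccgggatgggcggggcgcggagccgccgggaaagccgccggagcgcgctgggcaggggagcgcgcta
Fgf2: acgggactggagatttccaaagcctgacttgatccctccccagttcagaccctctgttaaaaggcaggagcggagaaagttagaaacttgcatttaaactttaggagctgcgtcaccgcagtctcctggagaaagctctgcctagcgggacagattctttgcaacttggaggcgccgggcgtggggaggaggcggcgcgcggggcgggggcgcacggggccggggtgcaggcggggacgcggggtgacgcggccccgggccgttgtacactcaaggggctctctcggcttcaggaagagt
Ciart holds 3 matches, at bases 135, 193 and 207 of its window, and Bhlhe41 holds 1, at base 98. A match describes the letters of the window and not occupancy. Arntl, whose interaction was negative, has a window without a match, and Bhlhe40 has no window. Whether a match goes with the interaction was not tested.

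Mitochondrially encoded genes, which specify subunits of the respiratory chain and the mitochondrial ribosomal RNAs, had negative interactions in 15 of 15, with 13 at an unadjusted p under 0.05 and a list median of -1.30. Among all genes tested, 52.7% of interactions were negative and 5.15% were negative at that threshold. The share of counts from all 37 mitochondrial genes was 12.2%, 13.04% and 12.1% in the FLOX-NC libraries and 13.1%, 22.3% and 26.4% in those of FLOX-ALD. It was 25.3% and 15.4% in the LKO-NC libraries and 14.9%, 12.998% and 14.1% in those of LKO-ALD. LKO-NC lay above FLOX-NC, and FLOX-ALD replicates 2 and 3 lay above all LKO-ALD libraries. The difference of differences was -14.5 percentage points (exact two-sided permutation test of genotype within each feeding, p = 0.015, where 0.005 is the smallest p the design allows). The shuffling assumes no genotype difference on either feeding, so its p does not measure the interaction alone. That exact permutation p was 0.06 without LKO-ALD replicate 2. It was 0.05, and so not under 0.05, without LKO-ALD replicate 1 or 3 or any 1 FLOX-NC library. Without LKO-NC replicate 1 the difference of differences was -9.54 percentage points, and the list median was -1.04. The largest interactions among the 15 listed genes were those of mt-Atp8 (-2.55 ± 0.74), mt-Co2 (-2.06 ± 0.57, or -1.18 without LKO-NC replicate 1) and mt-Co3 (-2.00 ± 0.49). These genes did not share 1 pattern: mt-Co3 was at 786 and 1439.5 CPM in LKO-NC against 206 to 405 CPM elsewhere and fell by 1.89 in Cre livers (edgeR adjusted p = 0.0381), while mt-Co2 was at 259, 477 and 531 CPM in FLOX-ALD and 351 CPM in LKO-NC replicate 1 against 107 to 207 CPM in the rest. Among mitochondrial transfer RNAs, which are outside the list, mt-Ts1 had an interaction of -2.89 ± 0.52 (edgeR adjusted p = 0.413). In the same class mt-Tm fell by 2.01 and mt-Tq by 1.81 in Cre livers (edgeR adjusted p = 0.0303 and 0.0318), with interactions of -2.38 ± 0.44 and -1.97 ± 0.43. Nuclear-encoded subunits of oxidative phosphorylation, 30 genes, had a median of 0.33, which turned to -0.05 without LKO-NC replicate 1, and 1 gene at an unadjusted p under 0.05, Sdha, a subunit of complex II (1.28 ± 0.51, or 0.76 without LKO-NC replicate 1). Because CPM values of other genes are shares of the same total, the interactions were refitted with TMM factors from a table without mitochondrial genes: Fgf2 again was the single call and its value was 5.92.

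Marker lists of macrophages and lymphocytes had negative medians. Among all genes tested, 52.7% of interactions were negative and 5.15% were negative at an unadjusted p under 0.05. Of 15 Kupffer cell and macrophage markers, 14 had a negative interaction, 8 of them at an unadjusted p under 0.05, with a median of -1.43 that became -0.83 without FLOX-ALD replicate 1 and -1.01 without LKO-NC replicate 1. Clec4f, the C-type lectin of Kupffer cells, was at 73.1, 78.01 and 51.9 CPM in FLOX-NC, at 136 and 78.3 CPM in LKO-NC, at 87.0, 43.9 and 42.4 CPM in FLOX-ALD and at 17.1, 29.1 and 37.5 CPM in LKO-ALD. LKO-ALD was below all others, and Clec4f fell by 1.94 in Cre livers (edgeR adjusted p = 0.0428), with an interaction of -1.71 ± 0.52. Cd68, a lysosomal protein of macrophages, fell by 2.44 in Cre livers (edgeR adjusted p = 0.0368), with LKO-NC at 19.2 and 9.30 CPM, above the other 9. The summed level of the list ran from 391 to 507 CPM in FLOX-NC and from 248 to 425 CPM in FLOX-ALD. It was 605 and 454 CPM in the LKO-NC libraries, and ran from 163 to 280 CPM in LKO-ALD. In whole liver, fewer cells of a type and less RNA per cell cannot be told apart.

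B and plasma cell markers had 10 negative of 11, 3 of them at an unadjusted p under 0.05, and a median of -1.78. Those 3 were 27.3% of the list, against 5.15% of all genes tested. Cd22, a B cell lectin, and Ighd, the delta heavy chain, fell by 3.49 and 2.90 in Cre livers (edgeR adjusted p = 0.0229 and 0.0368), where LKO-ALD was below all other libraries for both. The list's summed level ran from 22.3 to 32.2 CPM in FLOX-NC and from 8.02 to 11.9 CPM in FLOX-ALD. It was 41.3 and 28.5 CPM in the LKO-NC libraries and ran from 4.93 to 7.44 CPM in LKO-ALD, so it was lower on the NIAAA diet in both genotypes. Several immune medians rested on LKO-NC replicate 1. Without it, the B and plasma cell median was -0.72, that of 14 monocyte and lipid-associated macrophage markers went from -1.65 to -0.53, and that of 10 neutrophil markers from -2.16 to 0.00. The median of 15 dendritic cell and class II MHC genes went from -0.77 to -0.08 and that of 12 T and NK cell markers from -1.13 to -0.44. S100a8, the neutrophil calprotectin subunit, shows this: it was at 12.2 CPM in that library and at 0.771 CPM in LKO-NC replicate 2, with an interaction of -4.05 that became -0.98.

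Of 32 interferon-stimulated genes, 24 had a negative interaction, 6 of them at an unadjusted p under 0.05. The median was -0.47 and became -0.13 without LKO-NC replicate 1. Among all genes tested, 52.7% were negative and 5.15% negative at that threshold, which also applies to the lists that follow here. Ifi27l2a was at 1.43, 1.12 and 1.54 CPM in LKO-ALD against 2.33 to 7.23 CPM elsewhere, and fell by 2.21 in Cre livers (edgeR adjusted p = 0.0303; interaction -2.16 ± 0.49). Rsad2, the antiviral protein viperin, was likewise lowest in LKO-ALD, at 3.48, 2.78 and 1.62 CPM against 4.38 to 10.0 CPM (interaction -1.83 ± 0.51). The 26 cytokines, chemokines and NF-kB targets had a median of -1.07, or -0.23 without LKO-NC replicate 1, with 2 at an unadjusted p under 0.05. These were Nfkb2, which encodes the p100 subunit of NF-kB and fell by 1.58 in Cre livers (edgeR adjusted p = 0.0318), and Relb, its partner. Both were higher in LKO-NC than in all other libraries. Of 15 stellate cell and fibrosis genes 14 were negative, 5 at an unadjusted p under 0.05, with a median of -0.48 that stayed between -0.80 and -0.23 in the 11 leave-one-out fits. Col1a1 was at 20.7 and 13.6 CPM in LKO-NC against 3.02 to 8.32 CPM in the other 9 (interaction -1.44 ± 0.57). Sinusoidal endothelial markers (13 genes, median -0.10, or -0.29 without LKO-NC replicate 1 and -0.26 without FLOX-ALD replicate 1), cholangiocyte markers (10 genes, -0.45, or 0.27 without FLOX-ALD replicate 2) and erythroid and platelet genes (10 genes, -0.97, or -0.33 without LKO-NC replicate 1) had 1, 0 and 2 negative genes at that threshold. Hepatocyte markers had a median of 0.29, or 0.04 without LKO-NC replicate 1 and 0.49 without FLOX-ALD replicate 1.

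**Figure D4:**
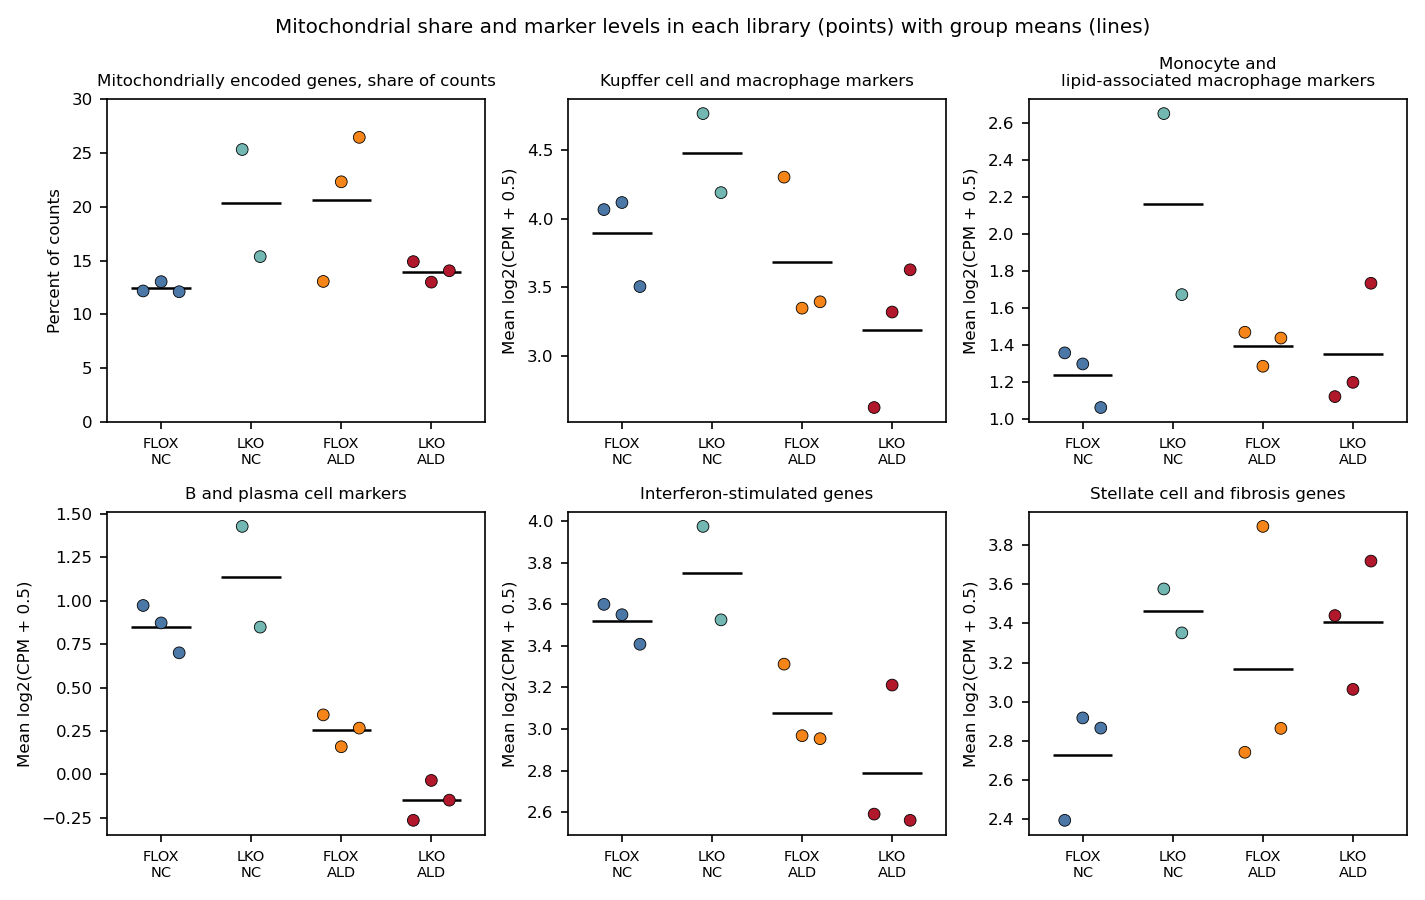
Points give, for each library, the share of counts in mitochondrially encoded genes (percent) and the mean log2(CPM + 0.5) of 5 gene lists (y axes), lines the group means, for the 4 groups (x axis). LKO-NC replicate 1 is the highest point for macrophage, monocyte, B cell and interferon lists, and LKO-ALD is lowest for B and plasma cell markers.

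Male-biased and female-biased liver genes had the most extreme medians among the lists, 1.68 over 24 genes and -3.00 over 25. The female-biased median was -0.73 without FLOX-ALD replicate 1, the library with high Xist, and the male-biased one 1.32. The list of Xist and 4 Y-linked genes had a median of 0.87, or 0.29 without it and 0.57 without LKO-NC replicate 1. A1bg was at 4389.8 CPM in that library and at most 11.05 CPM in any other. Cyp3a44 was at 456 CPM there and at most 1.48 CPM elsewhere. FLOX-ALD replicate 1 also set the sign of the median of 24 cholesterol synthesis genes, -0.55 with it and 0.11 without, and of 30 acute phase genes, -0.40 with it and 0.56 without (-0.21 without LKO-NC replicate 1). Male-biased members with an unadjusted p under 0.05 numbered 5, all positive (20.8% of the list, against 4.21% of all genes tested). Among them were Egfr (1.75 ± 0.49) and Nudt7, a peroxisomal coenzyme A hydrolase (2.10 ± 0.73). Nudt7 was at 472, 436 and 565 CPM in FLOX-NC and 67.7 to 376 CPM in the other 8.

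A further set of metabolic lists had medians between 0.23 and 0.62. Among all genes tested, 47.3% of interactions were positive. At an unadjusted p under 0.05, 4.21% were positive and 5.15% negative. Lipid droplet proteins and lipases (20 genes) stood at 0.62 with 16 positive, 1 of them at an unadjusted p under 0.05, the droplet protein Hsd17b13. Autophagy and lysosome genes (22) stood at 0.43 with 17 positive, 4 at that threshold, and amino acid, urea cycle and one-carbon genes (29) at 0.38 with 24 positive, 4 at that threshold. Without LKO-NC replicate 1 these medians were 0.25 and 0.22. Cps1, the entry enzyme of the urea cycle, was at 2715, 2720.1 and 1631.5 CPM in LKO-ALD against 556 to 1423 CPM in the other 8 (interaction 1.51 ± 0.59). Within LKO-NC, Cps1 was at 637 CPM in replicate 1 and 1299 CPM in replicate 2. Gluconeogenesis and glucose handling genes (24, median 0.23, or 0.08 without LKO-NC replicate 1) held 4 positive and 2 negative genes. Pfkfb3, which makes the activator of glycolytic phosphofructokinase, had an interaction of 2.57 ± 0.64 and Fbp1, the gluconeogenic fructose bisphosphatase, one of 2.08 ± 0.78. Fbp1 was at 65.6 CPM in LKO-NC replicate 1 and 208 CPM in LKO-NC replicate 2. The median was 0.45 in 22 fatty acid synthesis genes (3 positive), 0.46 in 15 ethanol and acetaldehyde oxidation genes (1 positive, Cyp2e1, at 1.36 ± 0.62, or 0.78 without LKO-NC replicate 1) and 0.30 in 29 PPARA targets (1 positive, 4 negative). Without LKO-NC replicate 1 these medians were 0.13, -0.09 and -0.04, and the first was 0.69 without FLOX-ALD replicate 1. Serpina3k, a hepatocyte protease inhibitor of a family of near-identical genes, was highest in LKO-ALD and lowest in LKO-NC, with an interaction of 1.85 ± 0.50. It was at 2564 CPM in LKO-NC replicate 1 and 5833 CPM in LKO-NC replicate 2. Abca1, the sterol exporter, was at 236, 150 and 414 CPM in LKO-ALD, above 65.0 to 147 CPM elsewhere, and rose by 1.84 in Cre livers (edgeR adjusted p = 0.046; interaction 1.73 ± 0.48). Bmf, a pro-apoptotic BH3-only protein, fell by 1.99 in floxed livers (edgeR adjusted p = 0.024; interaction 1.36 ± 0.43). Bmf was also lower with feeding in Cre livers, at 3.48, 3.79 and 3.07 CPM in LKO-ALD against 6.04 and 4.61 CPM in LKO-NC. Such a fall without overlap in both genotypes was seen in 3.80% of all genes tested.

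The remaining lists had medians between -0.34 and 0.37. Among all genes tested, 4.21% were positive and 5.15% negative at an unadjusted p under 0.05, beside which their counts stand. Bile acid genes (26, median 0.03), growth hormone and insulin signalling (21, -0.01), cell death genes (25, -0.02), hepatocyte transcription factors (22, 0.02) and LXR targets (18, -0.11) each held between 1 and 3 genes per direction at an unadjusted p under 0.05. Without LKO-NC replicate 1 the bile acid median was -0.04, that of growth hormone and insulin signalling -0.12 and that of cell death genes 0.09. Without FLOX-ALD replicate 1 the medians of these 5 lists were, in the same order, 0.06, 0.07, 0.15, 0.15 and -0.04. H19, an imprinted RNA kept in the transcription factor list, was at 4.92 and 5.17 CPM in LKO-NC against 0.103 to 1.49 CPM in the other 9, and fell by 4.44 in Cre livers (edgeR adjusted p = 0.0318; interaction -4.77 ± 1.03). Proteasome subunits (26, median 0.17), ER stress genes (25, 0.32) and immediate-early genes (25, -0.20) held none, and without LKO-NC replicate 1 their medians were -0.10, -0.11 and -0.08. The ER stress median was -0.56 without LKO-ALD replicate 3. Apolipoproteins (20, median -0.12, or -0.23 without LKO-NC replicate 1 and 0.03 without FLOX-ALD replicate 1) held none either, and Apoa1, the main protein of high-density lipoprotein, had an interaction of 0.20. Pericentral (0.37), periportal (0.24), xenobiotic (0.19), glutathione (0.08), complement and coagulation (0.20), iron and zinc (0.18), cell cycle (-0.34) and ribosomal protein genes (-0.20) held 0 to 4 genes per direction at that threshold. Without LKO-NC replicate 1 the medians were 0.10 in pericentral and in periportal genes, 0.09 in xenobiotic, 0.15 in glutathione, 0.08 in complement and coagulation, 0.06 in iron and zinc, 0.18 in cell cycle and -0.34 in ribosomal protein genes. Without FLOX-ALD replicate 1 the xenobiotic median was 0.36, the glutathione one -0.02, that of complement and coagulation 0.43, that of iron and zinc 0.35 and that of cell cycle genes -0.09.

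**Figure D5:**
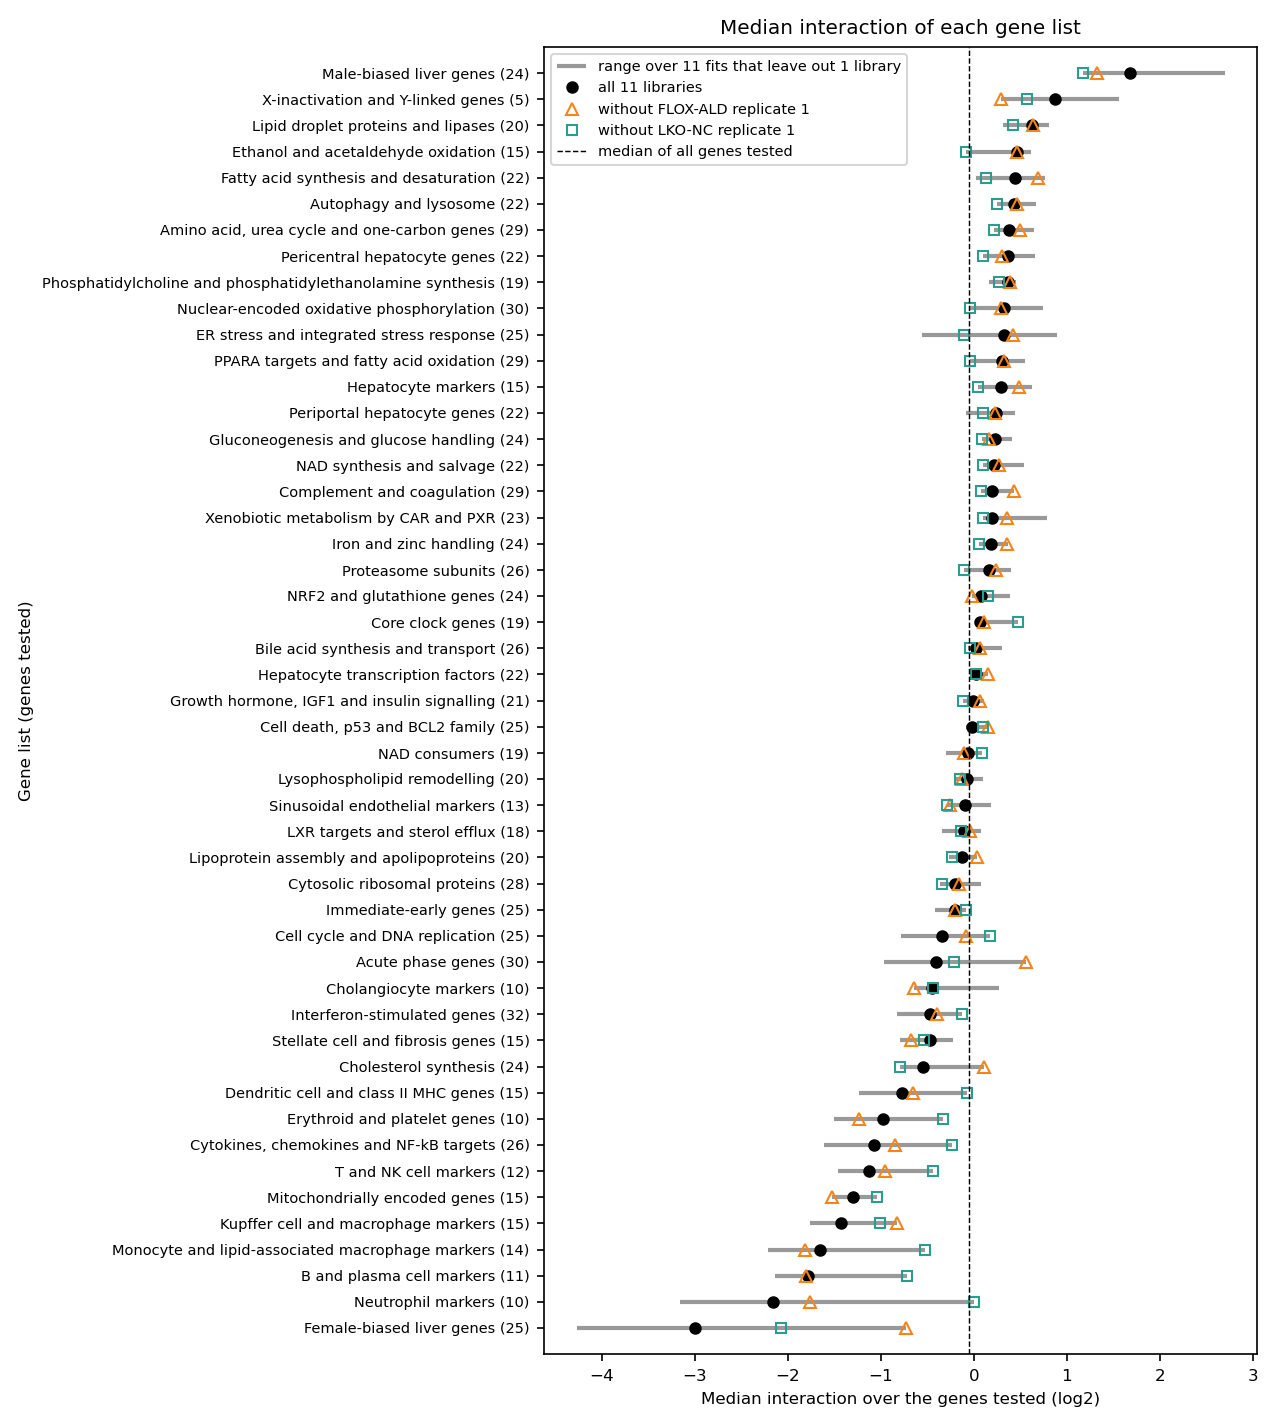
Black dots give the median interaction (x axis, log2) of each of 49 gene lists (y axis, with the number of genes tested), grey bars the range over the 11 fits that leave out 1 library, triangles and squares the medians without FLOX-ALD replicate 1 and without LKO-NC replicate 1. Immune lists lie at the negative end and move toward the dashed median of all genes, -0.05, without LKO-NC replicate 1; the female-biased list moves most without FLOX-ALD replicate 1.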

How the data were processed

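RNA from mouse liver was sequenced and 11 libraries were used, grouped by the labels. The deposited values are estimated counts per gene and per transcript and, in another table, FPKM. Per the submitters' processing notes, the authors used cutadapt, FastQC, HISAT2, StringTie and edgeR on mm10, with no versions or parameters given. The labels name a stranded kit and a second library kit. The authors' estimated counts are whole numbers, and gene totals equal the sum of their transcripts in all 55401 genes. The design had assumed counts, and the estimated counts were tested as they stand. A count of 0 may be a failed estimate.

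Genes were kept with filterByExpr (minimum count 10, minimum total count 15), scaled by TMM, and fitted with edgeR 4.0.16 in R 4.3.3 by robust quasi-likelihood with 1 mean per group and 7 residual degrees of freedom. The contrast was (LKO-ALD minus LKO-NC) minus (FLOX-ALD minus FLOX-NC), with Benjamini-Hochberg adjustment over all 19014 genes. The biological coefficient of variation was 42.2%. CPM values are TMM-scaled. Each SE was the absolute log2 value divided by the square root of its quasi-likelihood F statistic. It is not a separately estimated standard error of the coefficient. Alternatives were DESeq2 1.42.0, limma 3.58.1 on voom weights and on the authors' FPKM, other scaling, no filter, a replicate block, and fits without 1 or 2 libraries. The fit was tested on simulated counts.

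Members and the 49 gene lists (1016 of 1034 entries tested) were chosen with earlier results of these data known. Lists were described by counts and medians, without a set test. Named genes were Lpcat3 and Nampt, up to 10 per direction of smallest p, up to 3 per list and direction at an unadjusted p under 0.05 (the most abundant members where there was none), up to 8 per direction with opposed, non-overlapping feeding differences, and up to 8 per direction that held in the leave-one-out fits or in the fit without FLOX-ALD replicate 1. The rule names 155 genes, and those without a value in the text are not reported here. Promoter windows came from RefSeq, GRCm38.p6, which is mm10.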

Additional observations from a re-analysis of the deposited data

Results flagged for a closer look

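The interaction of Fgf2 was the one value past the adjusted threshold for a difference between the genotypes' feeding responses, at 5.90 on the log2 scale. It rests on 7 and 2 counts in the LKO-NC libraries.

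The mitochondrially encoded share of counts had a difference of differences of -14.5 percentage points between the genotypes (exact two-sided permutation test, p = 0.015). The test assumes no genotype difference on either feeding, so its p does not measure the interaction alone. The share is described by library. This share was 22.3% and 26.4% in 2 of 3 FLOX-ALD libraries, and LKO-NC replicate 1 stood at 25.3%. The effect of RNA quality on it was not tested.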

How the results depend on the processing

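The number of genes past an adjusted p under 0.05 was 1 with RLE size factors and with TMM factors from a table without mitochondrial genes, 5 with no filter on low counts, 77 with DESeq2 (33 positive), 6 without FLOX-ALD replicate 1 and LKO-NC replicate 1 together, and 0 with limma voom, with limma on log2(FPKM + 0.1) and on log2(FPKM + 1), and with the replicate block. Leaving out 1 library gave 0 to 8 calls, with 8 without FLOX-ALD replicate 2, 6 without LKO-NC replicate 2, 5 without LKO-NC replicate 1 and 3 without FLOX-ALD replicate 1 or 3. With the block the adjusted p of Fgf2 was 0.178.

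The title numbers were used as a replicate block although same-numbered libraries did not deviate together (correlations from -0.05 to 0.08 over 5 pairs).

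The mitochondrial difference of differences ran from -19.5 to -9.54 percentage points, with exact permutation p from 0.01 to 0.06, when 1 library was left out. Signs turned for Orm3 (0.40 without FLOX-ALD replicate 1 and LKO-NC replicate 1 together), for Csf3r and for Lpcat3. Csf3r ran from -2.44 to 0.04 with 1 library left out (0.038 without LKO-NC replicate 1 and 0.23 without both libraries). With 1 library left out Lpcat3 ran from -0.29 to 0.09, a range that leaves out the FPKM fits. Lpcat3 was 0.091 without LKO-NC replicate 2, 0.032 without FLOX-ALD replicate 2 and 0.077 without LKO-ALD replicate 3. The cause of these turns was not tested. DESeq2 took 33 other named genes past the threshold and Fgf2 alone fell back across it elsewhere. The LKO-NC level of Fgf2 rests on 7 and 2 counts, in libraries of 42641772 and 49424535 estimated counts. Why these counts were so low was not tested.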
